A study of Mus musculus with 13 samples.

Results

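The trophectoderm is the outer epithelium of the blastocyst and forms the fetal part of the placenta. In the mouse its identity depends on TEAD4, which in outer cells acts with the coactivator YAP1, upstream of the caudal homeobox factor CDX2. CDX2 and the T-box factor EOMES then hold the lineage apart from the inner cell mass, and AP-2 factors, GATA3, GATA2 and ELF3 accompany the epithelial and trophoblast programme. The genes of 10 such factors, Cdx2, Eomes, Elf3, Tead4, Gata3, Gata2, Tfap2c, Tfap2a, Id2 and Hand1, were followed here through all 19 probes that carry their symbols, out of 25697 probes on the array. At least 1 probe of 9 of the 10 genes was detected on some array, and these 9 were tested among 9787 genes. Hand1, a helix-loop-helix factor of trophoblast giant cells in the mouse, had 1 probe, which was not detected on any of the 13 arrays (lowest detection p-value 0.233) and was not tested.

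The study asked whether mouse embryos can switch on embryonic genes when DNA replication is blocked from the first cell cycle. RNA came from pools of fertilized embryos and of embryos made by somatic cell nuclear transfer (SCNT), each cultured without (Aph-) or with (Aph+) aphidicolin, an inhibitor of replicative DNA polymerases. The fertilized Aph-, fertilized Aph+ and SCNT Aph- groups held 3 arrays each, and SCNT Aph+ held 1. A further array came from MII oocytes and 2 arrays came from cumulus cells, the somatic cells around the oocyte that also gave the transplanted nuclei. By the study's text, C3H/HeN oocytes received C57Bl/6J sperm by injection or, after enucleation, C57Bl/6J cumulus cell nuclei, and Aph was given at 2 µg/ml from 6 to 96 hours post activation. In vitro fertilization is named instead by the labels, and by the study's text where it describes the deposited arrays, and the labels name B6C3F1 mice for the oocytes and cumulus cells. By the study's text the oocyte donors were 6 to 8 weeks old and the donors of sperm and cumulus cells 10 weeks old. No group carried a transgene or deletion in the labels of these arrays. Within an embryo group the 3 arrays are labelled as an untimed sample (replicate 1), a 96 h sample (replicate 2) and a blastocyst sample (replicate 3). The study's text gives 3 replicates of the embryo samples with and without Aph, and the arrays were taken as replicates. The sources do not state separate cultures, and a p-value here reflects array-to-array spread, which may be technical. The SCNT Aph+ array has no replicate here, although the study's text gives 3, so each of its tests assumes that it varies like the other groups. Its data column is headed Aph+SCNTBla, whereas the sample is titled Aph+SCNT. The column was tied to that sample as the only SCNT Aph+ sample.

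All 10 embryo arrays carry the cell type blastocysts in their labels, whereas the study's text has Aph+ embryos stopped at the 1-cell stage and Aph- embryos taken at whatever stage they had reached. Of 18 oocyte marker genes with a probe, 13 to 15 were detected on each Aph+ array and 15 on the oocyte array, against 4 to 6 on each Aph- array. The Aph+ arrays were also dimmer, with a mean intensity of 89.8 to 129 against 184 to 374 on Aph- arrays and 289 on the oocyte array. Fertilized Aph+ arrays correlated with each other at 0.845 to 0.851 (Pearson's r across genes), below the 0.980 to 0.987 of fertilized Aph- arrays. Of 24 cumulus cell markers with a probe, 14 were detected on the SCNT Aph+ array and 14 and 15 on the cumulus arrays, against 3 to 6 on every other array. In pools of embryos, fewer cells of a type and less RNA per cell cannot be told apart. Levels below are log2 values after background correction and quantile normalization, and a probe counts as detected when its detection p-value is below 0.01, which began at a log2 value of 4.71 to 6.15 depending on the array. One probe's level cannot be set against another's, so only differences between arrays are compared. A difference was called at an adjusted p below 0.05 in limma, and against the oocyte only if it was also at least 2-fold. Each gene was represented by its brightest probe unless another is named. Where a probe was undetected on some or all arrays of the dimmer group, the fitted difference rests partly on values below detection, and a bound ("at least") is given beside it. The bound sets the mean of the brighter group against the mean of the dimmer one, with each undetected array at the higher of the probe's own level and the lowest level at which probes were detected on that array.

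RefSeq promoters, running from 250 bases before an annotated start to 50 bases after it on GRCm38.p6, were at hand for 7 of the 10 genes, as 9 sequences. They are searched here because some of these factors are known to bind each other's genes and their transcripts moved together on the arrays. The letters searched, on both strands, were GGAATG for TEAD factors, AGATAA for GATA factors, GCCNNNGGC for AP-2 factors and CANNTG for the E-box of helix-loop-helix factors. The TEAD letters stood in 2 of the 9 sequences and in 14.7% of all 32851 mouse promoters of the same length. The AP-2 letters stood in 3 of 9 against 16.6%, the E-box letters in 5 of 9 against 72.3%, and the GATA letters in 0 of 9 against 11.2%. The 4 promoters below hold TEAD or AP-2 letters, which are the capitals, and each runs 5′ to 3′ along its gene's strand. A match is a match of letters, not a measured binding site. The gene coordinates given further on come from the same RefSeq build, since the arrays carry none.
Cdx2, chr5:147307200-147307499, minus strand, AP-2 letters from 16 bases before the start: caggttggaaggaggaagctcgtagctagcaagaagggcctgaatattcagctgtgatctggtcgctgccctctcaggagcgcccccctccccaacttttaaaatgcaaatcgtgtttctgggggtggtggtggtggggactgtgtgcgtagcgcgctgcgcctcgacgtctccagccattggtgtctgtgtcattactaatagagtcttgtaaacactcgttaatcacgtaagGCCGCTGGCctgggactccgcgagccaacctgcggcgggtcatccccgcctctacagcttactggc
Elf3, chr1:135258423-135258722, minus strand, TEAD letters: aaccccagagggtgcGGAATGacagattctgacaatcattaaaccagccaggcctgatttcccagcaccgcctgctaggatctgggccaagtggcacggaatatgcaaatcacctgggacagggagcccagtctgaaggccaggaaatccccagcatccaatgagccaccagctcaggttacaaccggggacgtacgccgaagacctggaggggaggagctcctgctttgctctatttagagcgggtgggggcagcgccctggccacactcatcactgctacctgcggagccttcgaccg
Gata3, chr2:9878551-9878850, minus strand, AP-2 letters at 3 places: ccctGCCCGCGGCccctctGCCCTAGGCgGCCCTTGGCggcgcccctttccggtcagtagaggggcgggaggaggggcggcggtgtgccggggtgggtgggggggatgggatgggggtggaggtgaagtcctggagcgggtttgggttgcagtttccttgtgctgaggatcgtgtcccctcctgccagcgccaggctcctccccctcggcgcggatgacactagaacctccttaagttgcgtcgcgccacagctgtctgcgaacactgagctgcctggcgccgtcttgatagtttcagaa
Gata2, the second of its 2 starts, chr6:88198414-88198713, plus strand, AP-2 letters and, on the opposite strand, TEAD letters: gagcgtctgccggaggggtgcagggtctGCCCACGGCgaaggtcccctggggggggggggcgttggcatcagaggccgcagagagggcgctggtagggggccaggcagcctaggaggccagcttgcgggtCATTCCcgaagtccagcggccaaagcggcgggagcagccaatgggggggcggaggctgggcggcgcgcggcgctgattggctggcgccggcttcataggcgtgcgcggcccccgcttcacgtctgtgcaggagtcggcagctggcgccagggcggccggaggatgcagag
The promoters of Eomes, Tfap2a, Id2 and the other Gata2 start held neither the TEAD nor the AP-2 letters.

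By its brightest probe every one of the 9 measured factors was detected on all 6 arrays of untreated embryos, and every one was lower when fertilized embryos were kept in Aph. Those 6 arrays detected 29.9% to 36.9% of all probes. All 9 fell in fertilized Aph+ against Aph- embryos, where 25.1% of all genes tested fell and 19.1% rose, with a median fitted log2 difference of -3.46 against -0.03 over all genes. In SCNT embryos 8 of the 9 fell, where 14.7% of all genes fell and 13.7% rose, with a median of -4.29 against -0.10, and Id2 was the exception. With undetected values at their detection limits, which were higher on Aph+ than on Aph- arrays, the medians were -2.51 and -3.32 against 0.79 and 0.72 over all genes. These counts were 9 and 8 whichever of the 11 replicated arrays was left out. In every one of the 9 genes the 3 fertilized Aph+ arrays lay below the 3 fertilized Aph- arrays without overlap, as they did in 30.6% of all genes. Eomes and Tfap2a were detected on Aph- arrays alone, so they passed the detection filter only through the groups in which they were high. Their falls and lack of overlap are therefore not independent of that filter, which was the same for all genes.

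**Figure D1:**
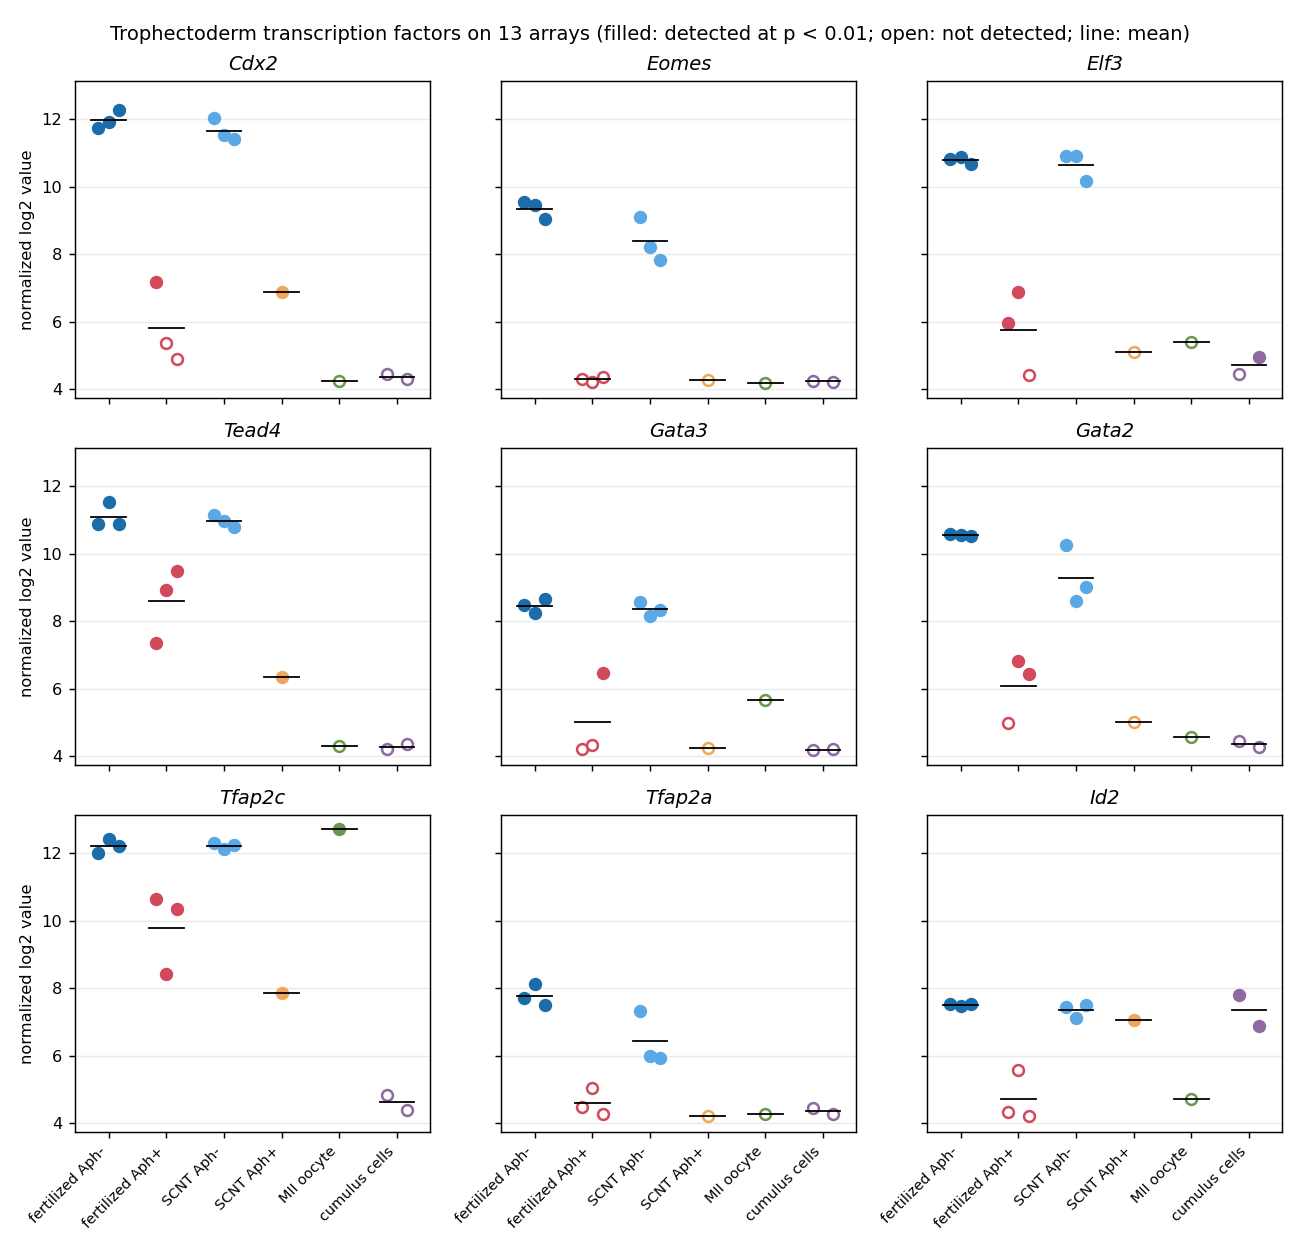
Normalized log2 value (vertical axis) of each of the 9 factors on the 13 arrays, grouped along the horizontal axis by embryo or cell type, with filled points for detected and open points for undetected probes and a line at each group mean. Aph- arrays sit high in every panel, the oocyte lies above them for Tfap2c (12.70), and for Id2 the cumulus cells (7.80 and 6.89) and the SCNT Aph+ array (7.07) lie around them.

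Cdx2 (chr5:147300900-147307249), the homeobox gene that defines the trophectoderm, read 11.75, 11.92 and 12.28 on the fertilized Aph- arrays and 12.03, 11.53 and 11.42 on the SCNT Aph- arrays. The fertilized Aph+ arrays read 7.18, 5.37 and 4.88, of which only the first was detected, and the SCNT Aph+ array read 6.89 and was detected. The MII oocyte (4.24) and cumulus cells (4.43 and 4.30) were not detected. The gene thus split the arrays into a high Aph- set and a low remainder, with some signal left on 2 of the 4 Aph+ arrays. Its fall in fertilized embryos was at least 49.0-fold (fitted -6.17, SE 0.50, adjusted p = 1.44e-05 in limma). In SCNT embryos it fell by 4.77 (SE 0.71, adjusted p = 0.000949). In raw intensity the same 3 fertilized Aph- arrays read 5599 to 8663 and the 3 fertilized Aph+ arrays 81.1 to 103.

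On the SCNT Aph+ array the Cdx2 probe gave a raw intensity of 82.8, where detection began at 78.1, and it was 93.4 on the oocyte array, where detection began at 118. After normalization Cdx2 was higher than in the oocyte by 2.64 (SE 0.87, adjusted p = 0.0407), at least 2.32-fold when the oocyte is set at its detection limit. This call was lost with no background correction (0.95, adjusted p = 0.151), with scaling to the 75th percentile (1.35, adjusted p = 0.253), with no detection filter (adjusted p = 0.0715), and when any 1 array of the Aph- or cumulus groups was left out (adjusted p 0.0543 to 0.0612). On the first fertilized Aph+ array the same probe read 103 where detection began at 85.9. The difference between the SCNT and the fertilized Aph effect on Cdx2 was fitted as 1.399 (SE 0.87, adjusted p = 0.280). Without that first fertilized Aph+ array it was fitted as 2.08 and passed the threshold (adjusted p = 0.00583), but both fertilized Aph+ arrays then left were undetected, so that this value rests on levels below detection.

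Eomes (chr9:118478186-118486132), the T-box gene of trophectoderm and trophoblast stem cells, had the simplest pattern. It read 9.55, 9.45 and 9.03 in fertilized Aph- embryos and 9.11, 8.22 and 7.81 in SCNT Aph- embryos, and lay between 4.17 and 4.36 on the other 7 arrays, none of which detected it. The drop was therefore a bound, at least 11.2-fold in fertilized embryos (fitted -5.06, SE 0.31, adjusted p = 3.00e-06) and at least 5.34-fold in SCNT embryos (fitted -4.11, SE 0.44, adjusted p = 0.000161).

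Elf3 (chr1:135253574-135258472), which encodes an epithelial ETS factor, read 10.80, 10.89 and 10.67 without Aph in fertilized embryos and 10.89, 10.89 and 10.15 in SCNT embryos. Fertilized Aph+ arrays read 5.95, 6.86 and 4.43, with the first 2 detected, and the SCNT Aph+ array read 5.09, undetected. The 2 embryo types overlapped without Aph, and no Aph+ array came near them. Elf3 fell at least 22.0-fold (fitted -5.04, SE 0.52, adjusted p = 5.29e-05) in fertilized embryos and at least 25.7-fold (fitted -5.55, SE 0.73, adjusted p = 0.000505) in SCNT embryos. A second Elf3 probe gave smaller falls (fitted -2.84, at least 6.98-fold, and -2.04), and the remaining Elf3 probe was not detected anywhere. That second probe was detected on the SCNT Aph+ array (6.76) and on the oocyte array (5.79), where the brightest was not. Elf3 was also detected at a low level (4.96) on 1 of the 2 cumulus arrays, the one that detected the most probes.

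Tead4 (chr6:128227143-128300813), the gene of the DNA-binding partner of YAP1 that acts upstream of Cdx2 in the mouse, stayed detected on all 10 embryo arrays, as did Tfap2c. Without Aph it read 10.88, 11.52 and 10.88 in fertilized and 11.14, 10.98 and 10.79 in SCNT embryos. With Aph it read 7.36, 8.91 and 9.49 in fertilized embryos and 6.36 on the SCNT array. The oocyte (4.29) and cumulus cells (4.21 and 4.35) were undetected. By mean level the order was untreated embryos, fertilized Aph+, SCNT Aph+, and then the oocyte and cumulus cells together. The SCNT Aph+ level came from 1 array, with a raw intensity of 79.6 where detection began at 78.1. Tead4 was not called higher there than in the oocyte (fitted 2.06), and its place below fertilized Aph+ embryos depended on the processing, as given further on. It was the only 1 of the 9 called higher in fertilized Aph+ embryos than in the oocyte (4.29, SE 0.65, adjusted p = 0.000483, at least 7.54-fold), where 18.4% of all genes were higher. That call was lost in a fit of only those 2 groups (adjusted p = 0.0885). Against untreated embryos it fell by 2.51 (SE 0.46, adjusted p = 0.00181) when fertilized, and it fell by 4.61 (SE 0.65, adjusted p = 0.000752) in SCNT embryos. The second detected Tead4 probe was undetected on the SCNT Aph+ array, on the first fertilized Aph+ array and in the oocyte. It kept the fall in SCNT embryos (at least 3.49-fold, fitted -3.44, adjusted p = 0.00691 in limma over probes), and the fall in fertilized embryos missed the threshold (fitted -1.23, SE 0.52, adjusted p = 0.0825).

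Gata3 (chr2:9857078-9887953), the gene of a zinc-finger factor, read 8.46, 8.24 and 8.67 in fertilized Aph- and 8.57, 8.15 and 8.32 in SCNT Aph- embryos. Fertilized Aph+ arrays read 4.21, 4.32 and 6.46, of which only the last was detected, and the SCNT Aph+ array (4.25), the oocyte (5.67) and cumulus cells (4.17 and 4.21) were undetected. The oocyte array missed detection narrowly (detection p-value 0.010025, raw intensity 118.0 where detection began at 118.1). Gata3 fell at least 5.61-fold (fitted -3.46, SE 0.51, adjusted p = 0.000467) in fertilized embryos and at least 5.22-fold (fitted -4.10, SE 0.72, adjusted p = 0.00243) in SCNT embryos. Gata2 (chr6:88193891-88207032), its relative in trophoblast, read 10.58, 10.55 and 10.53 in fertilized Aph- and 10.26, 8.58 and 9.02 in SCNT Aph- embryos. Its fertilized Aph+ arrays read 4.97, 6.83 and 6.43, with the last 2 detected, and the SCNT Aph+ array 4.996, undetected. Both GATA genes therefore kept some signal in part of the fertilized Aph+ arrays, and neither was detected on the SCNT Aph+ array. Gata2 fell at least 18.9-fold (fitted -4.48, SE 0.51, adjusted p = 0.000103) in fertilized embryos and, in SCNT embryos, at least 10.002-fold (fitted -4.29, SE 0.72, adjusted p = 0.00195).

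Tfap2a (chr13:40713802-40738238), an AP-2 gene, read 7.71, 8.12 and 7.49 in untreated fertilized embryos, 7.34, 5.996 and 5.93 in untreated SCNT embryos and 4.22 to 5.04 on the other 7 arrays, all undetected. The fall was at least 3.76-fold in fertilized embryos (fitted -3.18, SE 0.38, adjusted p = 0.000144). In SCNT embryos it was at least 1.37-fold (fitted -2.20, SE 0.54, adjusted p = 0.0136), and this call was lost with scaling to the 75th percentile (-0.93, adjusted p = 0.260) and in a fit of only the 2 groups (adjusted p = 0.0682). Of the 3 SCNT Aph- arrays, 2 lay well below all fertilized Aph- arrays and nearer to the undetected level. A second Tfap2a probe, undetected on all Aph+ arrays, fell at least 1.51-fold (fitted -2.04, SE 0.32, adjusted p = 0.000792) in fertilized embryos. It was detected on only 2 of the 3 SCNT Aph- arrays and missed the threshold in SCNT embryos (fitted -1.13, SE 0.46, adjusted p = 0.101).

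Which factors kept a signal under Aph differed from array to array. Of all probes, 22.5% to 26.1% were detected on Aph+ arrays and 29.9% to 36.9% on Aph- arrays. By the brightest probes, each of the 4 Aph+ arrays detected 4 of the 9. Tead4 and Tfap2c were among them on all 4 arrays. Cdx2 and Elf3 completed the set on the first fertilized Aph+ array, Elf3 and Gata2 on the second, Gata3 and Gata2 on the third, and Cdx2 and Id2 on the SCNT Aph+ array. Eomes and Tfap2a were detected on none of the 4. The oocyte array detected Tfap2c alone by the brightest probes, with Gata3 just short of detection. Counting every probe adds Elf3 on the SCNT Aph+ array, which makes 5 of the 9 there, and Elf3 on the oocyte array, and adds no other factor on these arrays.

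**Figure D2:**
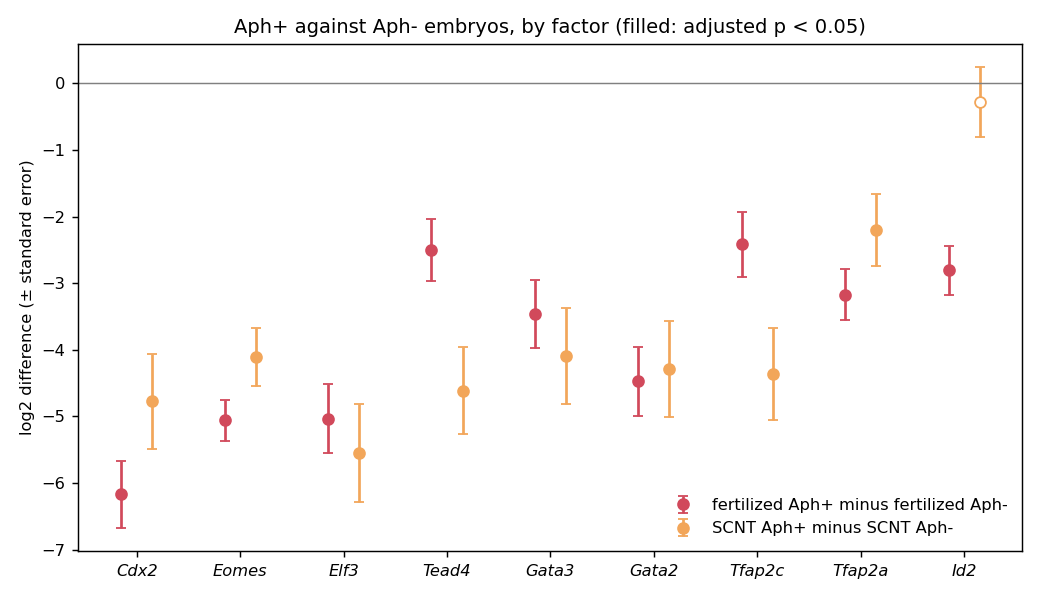
Fitted log2 difference between Aph+ and Aph- embryos (vertical axis, with standard errors) for each factor (horizontal axis) in fertilized and SCNT embryos, with filled points for differences called at adjusted p below 0.05. All fertilized differences lie between -6.17 and -2.42, and the single open point is Id2 in SCNT embryos at -0.28.

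Tfap2c (chr2:172545678-172558622), the other AP-2 gene, is known as a maternal transcript as well as a trophectoderm regulator, and it behaved unlike the rest against the oocyte. Its brightest probe read 12.70 in the oocyte, 12.01, 12.41 and 12.21 in untreated fertilized and 12.29, 12.11 and 12.24 in untreated SCNT embryos. Fertilized Aph+ arrays read 10.63, 8.41 and 10.34, the SCNT Aph+ array 7.85, and cumulus cells 4.83 and 4.40, undetected. By level the order was oocyte and untreated embryos, then fertilized Aph+, then SCNT Aph+, then cumulus cells. No array of a lower step reached a higher one, but the share of all genes with this order was not counted. The oocyte and the SCNT Aph+ group held 1 array each. Between fertilized and SCNT Aph+, Tfap2c missed the threshold in the main model (fitted -1.94). Tfap2c was called higher in SCNT Aph+ than in cumulus cells, a call lost under several settings, as given further on. It was the only 1 of the 9 called below the oocyte, with a difference of -2.91 (SE 0.69, adjusted p = 0.00688) for fertilized Aph+ and -4.85 (SE 0.85, adjusted p = 0.00199) for SCNT Aph+, where 21.9% and 16.4% of all genes were lower. The first of these was lost in a fit of only those 2 groups (adjusted p = 0.206). In untreated embryos the difference from the oocyte was -0.49 in both groups (95% interval -2.04 to 1.06 in fertilized embryos, adjusted p = 0.631). Under Aph it fell by 2.42 (SE 0.49, adjusted p = 0.00304) in fertilized embryos and fell by 4.36 (SE 0.69, adjusted p = 0.00138) in SCNT embryos.

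The 3 Tfap2c probes disagreed about the oocyte and about SCNT. In SCNT Aph- embryos the probe ILMN_1231632 read 8.52, 9.20 and 9.12, above all 3 fertilized Aph- arrays (7.42, 7.83 and 7.57) and the oocyte (7.17). The probe ILMN_2783226 read 7.06, 6.96 and 7.61 in SCNT Aph- and 7.19, 7.80 and 7.74 in fertilized Aph- embryos, below the oocyte at 8.86. Relative to the oocyte, ILMN_2783226 was called lower in fertilized Aph- (-1.28, SE 0.36, adjusted p = 0.0150) and in SCNT Aph- embryos (-1.65, SE 0.36, adjusted p = 0.00375), which the brightest probe (ILMN_2783225) was not. For SCNT Aph- against fertilized Aph- embryos, ILMN_1231632 differed by 1.34 (SE 0.49, adjusted p = 0.370), the brightest by 0.002. All 3 probes fell under Aph in both embryo types. On the SCNT Aph+ array both dimmer probes were undetected, ILMN_1231632 at 4.32 and ILMN_2783226 at 4.34, and ILMN_1231632 was also undetected on 1 of the 3 fertilized Aph+ arrays. Their falls in SCNT embryos were therefore bounds, at least 7.89-fold and at least 2.36-fold, and the SCNT Aph+ array lay below the oocyte by at least 2.30-fold for ILMN_1231632 and at least 7.43-fold for ILMN_2783226. In fertilized embryos ILMN_2783226 fell by 0.98 and ILMN_1231632 at least 2.31-fold. In fertilized Aph+ embryos 2 of the 3 probes were lower than the oocyte, and ILMN_1231632 differed by -1.13 (fitted, adjusted p = 0.250). For the brightest probe, which was detected on every embryo array, the fall in SCNT embryos differed from that in fertilized embryos by -1.95 (SE 0.84, adjusted p = 0.128). For ILMN_2783226 the fitted difference between the falls was called (-1.89, SE 0.43, adjusted p = 0.0115), but it was -0.26 with the SCNT Aph+ array at its detection limit. The call for ILMN_1231632 (fitted -3.05, SE 0.86, adjusted p = 0.0275) likewise rests on undetected values.

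**Figure D3:**
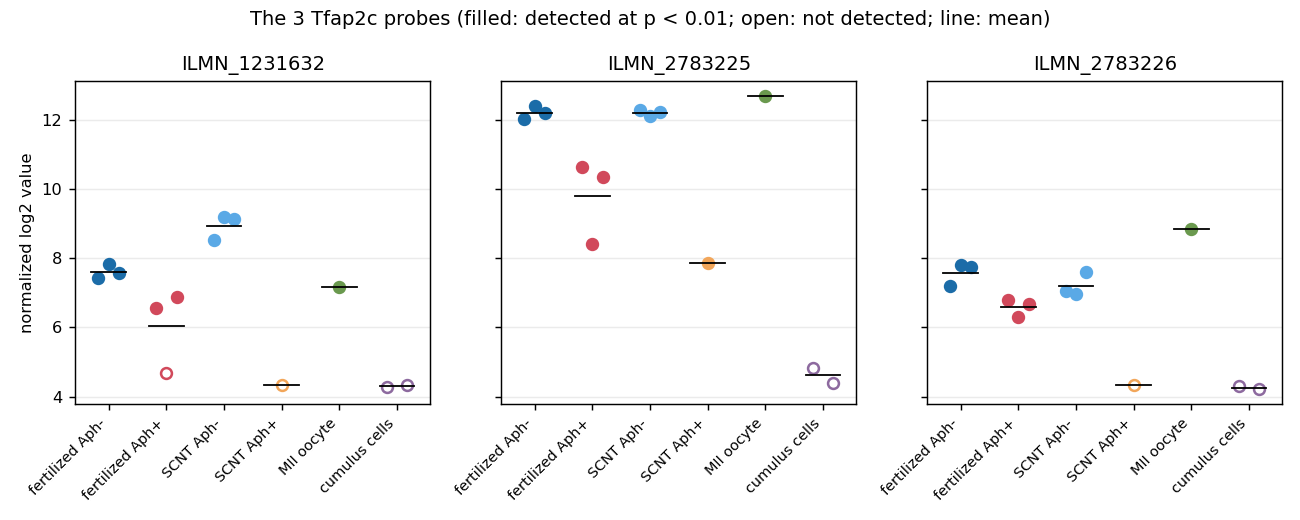
Normalized log2 value (vertical axis) of the 3 Tfap2c probes by group, 1 panel a probe, with filled points for detected and open points for undetected arrays and a line at each group mean. All 3 panels fall from Aph- to Aph+ embryos, but the oocyte is highest in the middle and right panels (12.70 and 8.86) and SCNT Aph- embryos are highest in the left panel.

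Id2 (chr12:25093799-25096092) encodes an inhibitor that keeps helix-loop-helix factors from DNA, and in the mouse it is an early marker of outer cells. Without Aph it read 7.53, 7.46 and 7.53 in fertilized and 7.44, 7.11 and 7.49 in SCNT embryos, and in fertilized Aph+ embryos it read 4.32, 5.57 and 4.22, all undetected. The SCNT Aph+ array read 7.07 and the cumulus arrays 7.80 and 6.89, all detected, and the oocyte read 4.71, undetected. The SCNT Aph+ array thus lay just under the lowest untreated embryo array and between the 2 cumulus arrays, apart from the fertilized Aph+ arrays. In fertilized embryos Id2 fell at least 3.12-fold (fitted -2.80, SE 0.37, adjusted p = 0.000246). In SCNT embryos the difference was -0.28 (95% interval -1.45 to 0.89, adjusted p = 0.780). It was the only 1 of the 9 whose Aph effect was called different between SCNT and fertilized embryos (fitted 2.53, SE 0.64, adjusted p = 0.0171, and 1.36 with the undetected fertilized Aph+ arrays at their detection limits), in a test that called 13.8% of all genes in that direction and 12.4% in the other. The second Id2 probe gave the same pattern (6.70 on the SCNT Aph+ array, 4.89, 5.62 and 5.18 on the fertilized Aph+ arrays, all 3 undetected, and a fitted difference of 1.45, SE 0.42, adjusted p = 0.0325, which was 0.82 at the detection limits).

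Cumulus cell markers and Id2 were both high on the SCNT Aph+ array and the cumulus arrays, but not elsewhere. Untreated embryos had a high Id2 level and low markers. In fertilized embryos under Aph 4 of 16 markers tested rose and 1 fell while Id2 fell, where 19.1% of all genes rose and 25.1% fell. Of 24 such genes with a probe, the summed log2 level was 163 on the SCNT Aph+ array, 166 and 167 on the cumulus arrays, 120 to 135 in fertilized Aph+, 114 to 115 in SCNT Aph- and 112 to 113 in fertilized Aph- embryos. Of the 16 tested, 12 rose and 0 fell on the SCNT Aph+ array against SCNT Aph- embryos (median 2.40), where 13.7% of all genes rose. Timp1, a protease inhibitor abundant in cumulus cells, read 12.15 on the SCNT Aph+ array, 12.41 and 12.69 in cumulus cells and 8.29 to 10.12 in fertilized Aph+ embryos. Star, the steroidogenic cholesterol carrier, was detected on the SCNT Aph+ array (6.20) and on 1 cumulus array (5.19) and on no other. Its raw intensity on the SCNT Aph+ array was 79.0, close to the 78.1 at which detection began there. The part of cumulus cell RNA in the Id2 level was not tested. Of the other factors detected on the SCNT Aph+ array, Cdx2, Tead4 and Tfap2c were undetected in both cumulus samples, and Elf3, detected there by its second probe only, was also detected on 1 cumulus array.

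The raw intensity of Id2 on the SCNT Aph+ array was 84.3, with detection from 78.1, and 74.6 to 88.6 on fertilized Aph+ arrays, with detection from 85.9 to 90.1. With scaling to the 75th percentile the Id2 difference between the effects was 1.12 (adjusted p = 0.232), the only setting that ended this call.

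**Figure D4:**
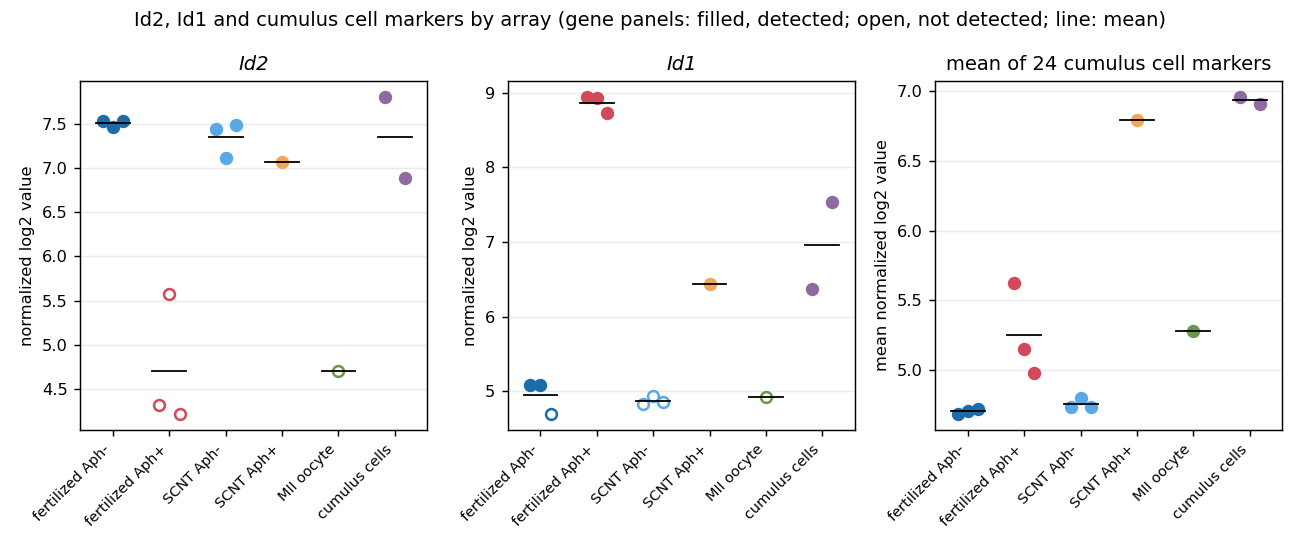
Normalized log2 value of Id2 (left) and its paralog Id1 (middle), with filled points for detected and open points for undetected arrays, and the mean normalized log2 value over 24 cumulus cell markers (right, all points filled), by group with a line at each group mean. Vertical axes start above 0 and differ between panels, and the SCNT Aph+ array lies near the cumulus cells in all 3 panels (7.07, 6.44 and 6.80).

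Between the 2 Aph+ conditions 2 of the 9 were called. Id2 was higher on the SCNT Aph+ array than in fertilized Aph+ embryos (2.37, SE 0.52, adjusted p = 0.00720, at least 2.30-fold), where 16.9% of all genes were higher. Tead4 was lower (-2.23, SE 0.65, adjusted p = 0.0272), where 14.4% were lower. Tfap2c missed the threshold (-1.94, SE 0.69, adjusted p = 0.0579). Tfap2c passed the threshold with scaling to the 75th percentile (-2.40), with the mean of all probes (-1.97) and without the second fertilized Aph+ array (-2.64). It also passed with detection on at least 3 arrays and with a trended robust eBayes (-1.94 in both). The second detected Tead4 probe and both dimmer Tfap2c probes were undetected on the SCNT Aph+ array. Of these, ILMN_2783226 of Tfap2c, detected on all 3 fertilized Aph+ arrays, was at least 1.56-fold lower (fitted -2.27, adjusted p = 0.00128). The calls for Id2 and Tead4 were both lost with scaling to the 75th percentile (adjusted p = 0.407 and 0.0945) and in a fit of only the 2 groups (0.188 and 0.323). The Tead4 call was also lost with no background correction (-1.36) and without the second fertilized Aph+ array (-2.07).

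Without Aph, SCNT and fertilized embryos were compared to see whether cloned embryos carried the same factors. Both groups could mix stages, since Aph- embryos were taken at whatever stage they had reached, and the part of stage in these differences was not tested. None of the 9 was called in limma, where 0.398% of all genes were called lower and 0.163% higher, and 3 of the 9 (Eomes, Gata2 and Tfap2a) had an unadjusted p below 0.05. All 3 were lower in SCNT embryos, as were 5.06% of all genes at that p. Gata2 differed by -1.26 (95% interval -2.41 to -0.12, adjusted p = 0.435) and Tfap2a by -1.35 (-2.21 to -0.50, adjusted p = 0.192), and for both genes the 3 SCNT arrays lay below the 3 fertilized arrays, as in 13.5% of all genes. Eomes differed by -0.97 (-1.66 to -0.28, adjusted p = 0.258), with the first SCNT array (9.11) inside the fertilized range. Without that first SCNT array Tfap2a passed the threshold (-1.81, adjusted p = 0.0437). For the other 6 factors the differences lay between -0.32 and 0.00, and their 95% intervals reached from -1.44 at the lowest to 1.10 at the highest, so that changes of up to about that size were not resolved.

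Set against the oocyte, 8 of the 9 were higher in both groups of untreated embryos, all but Tfap2c, and 0 were lower. Eomes and Tfap2a passed the detection filter only through these untreated groups. Of all genes, 23.0% were higher and 20.6% lower in fertilized, and 23.2% higher and 21.0% lower in SCNT Aph- embryos. Cdx2 was at least 79.3-fold higher in fertilized and at least 63.5-fold in SCNT Aph- embryos, and Tead4 at least 42.8-fold and 39.3-fold (fitted adjusted p from 2.08e-05 to 2.93e-05 in limma). The smallest bounds in SCNT Aph- embryos were those of Tfap2a (1.68-fold) and Id2 (3.19-fold). On the SCNT Aph+ array Cdx2 and Id2 (2.36, SE 0.64, adjusted p = 0.0182, at least 2.63-fold) were called higher than in the oocyte, where 16.8% of all genes were higher. The Id2 call was lost with the authors' log2 values (adjusted p = 0.0635), with no background correction (0.88, under 2-fold) and with scaling to the 75th percentile (1.09, adjusted p = 0.169). The Gata3 call in untreated embryos was lost with the authors' log2 values (adjusted p = 0.0568 in fertilized and 0.0645 in SCNT embryos). The Tfap2a call in SCNT Aph- embryos was lost with no background correction (0.74, under 2-fold), with scaling to the 75th percentile (adjusted p = 0.0521) and in a fit of only the 2 groups (adjusted p = 0.0572). Against cumulus cells, the cells whose nuclei were transplanted, 8 of the 9 were higher in SCNT Aph- embryos, where 17.5% of all genes were higher and 16.4% lower. Id2 was the exception, with a difference of 0.002 (95% interval -0.92 to 0.93). The SCNT Aph+ array exceeded cumulus cells in Tfap2c alone (3.23, SE 0.73, adjusted p = 0.0285, at least 6.41-fold), where 4.39% of all genes were higher and 2.60% lower. That call was lost without either cumulus array, without any 1 of the fertilized Aph- arrays and without the first or the third SCNT Aph- array (adjusted p 0.0506 to 0.0991). It was also lost with no background correction (1.36, adjusted p = 0.264), with scaling to the 75th percentile (adjusted p = 0.0586), with the mean of all probes (1.11, adjusted p = 0.323), in a fit of only the 2 groups (adjusted p = 0.175) and with the labelled sample type as a replicate block (adjusted p = 0.0836). The other 2 Tfap2c probes were undetected in both cumulus samples and on the SCNT Aph+ array, and give no comparison.

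The factors were set beside other members of their gene families. Of 23 paralogs with a probe, 13 were tested. In fertilized embryos 1 rose and 4 fell under Aph, and in SCNT embryos 2 rose and 0 fell (fitted medians -0.53 and -0.00, and 0.77 and 0.89 with undetected values at their detection limits, near the medians over all genes given above). Over all genes 19.1% rose and 25.1% fell in fertilized embryos, and 13.7% rose and 14.7% fell in SCNT embryos. Id1, which encodes an inhibitor of the same kind as ID2, read 5.08, 5.08 and 4.70 (the last undetected) in fertilized Aph- embryos and 8.94, 8.92 and 8.72 in fertilized Aph+ embryos. It rose at least 14.8-fold (fitted 3.91, SE 0.28, adjusted p = 7.42e-06), in the comparison in which Id2 fell. The SCNT Aph+ array read 6.44 and cumulus cells 6.36 and 7.54, and the rise against SCNT Aph- embryos was at least 2.57-fold (fitted 1.57, SE 0.40, adjusted p = 0.0160). Tead2, a relative of Tead4 that the oocyte does hold (7.10), fell from 9.07 to 9.47 in fertilized Aph- embryos to 7.91, 5.39 and 6.44 in fertilized Aph+ embryos (at least 5.93-fold, fitted -2.70, SE 0.52, adjusted p = 0.00245). Gata6, the primitive endoderm relative of the 2 GATA genes, fell at least 15.1-fold (fitted -4.45, SE 0.38, adjusted p = 1.98e-05) in fertilized embryos and read 8.84 on the SCNT Aph+ array, 7.75 in the oocyte and 9.11 and 8.65 in cumulus cells. Elf5, an ETS factor of trophoblast stem cells, was detected on 5 arrays, all of untreated embryos.

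Genes of trophectoderm structure and signalling fell in both embryo types under Aph or were not called. Of 29 tested, 18 fell and 0 rose in fertilized embryos under Aph (fitted median -2.61, and -1.88 with undetected values at their limits), and 12 fell and 0 rose in SCNT embryos (-1.51 and -1.03). At the limits the medians over all genes were 0.79 and 0.72. The shares that fell over all genes were 25.1% and 14.7%. Of the keratin pair of simple epithelia, Krt8 fell by 4.37 (SE 0.36, adjusted p = 1.46e-05) and Krt18 at least 26.2-fold (fitted -4.90, SE 0.55, adjusted p = 8.99e-05) in fertilized embryos. The tight junction gene Cldn4 fell at least 24.7-fold (fitted -5.58, SE 0.60, adjusted p = 7.01e-05) and, in SCNT embryos, at least 25.3-fold. Klf5, a zinc-finger factor needed for the trophectoderm in the mouse, fell at least 16.2-fold in SCNT embryos (fitted -5.53, SE 0.37, adjusted p = 1.69e-05). In untreated embryos the list held 1 gene that differed between SCNT and fertilized, the aquaporin Aqp8 (at least 4.86-fold lower in SCNT, fitted -2.62, SE 0.19, adjusted p = 0.000688 in limma). Of all genes, 0.398% were called lower in that comparison.

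The Hippo pathway, whose kinases keep YAP1 from TEAD4, was counted next, in a list that also held Notch1. Of 8 genes tested, 3 fell and 0 rose in fertilized embryos under Aph, where 25.1% of all genes fell and 19.1% rose. In SCNT embryos 1 fell and 1 rose, where 14.7% of all genes fell and 13.7% rose. The fitted medians were -0.37 and -0.09. At the detection limits they were 0.21 and 0.78, against 0.79 and 0.72 over all genes. Those that fell in fertilized embryos included the kinase gene Stk4 (at least 3.48-fold, fitted -2.72, SE 0.58, adjusted p = 0.00395) and Notch1 (at least 1.86-fold, fitted -2.05, SE 0.44, adjusted p = 0.00443), a receptor whose pathway also feeds Cdx2. In SCNT embryos Notch1 fell at least 1.71-fold and the scaffold gene Sav1 rose at least 14.7-fold (fitted 4.12, SE 0.73, adjusted p = 0.00248). Sav1 was higher in cumulus cells than in SCNT Aph- embryos too (SCNT Aph- minus cumulus cells at least 13.5-fold lower, fitted -3.99, SE 0.57, adjusted p = 0.000581). Yap1 itself read 12.13 in the oocyte, 7.74 to 8.35 in untreated embryos, 8.30, 6.81 and 8.68 in fertilized embryos given Aph and 7.27 in the SCNT Aph+ pool. It was lower than in the oocyte in all 4 embryo groups (-4.86 to -3.96), the groups in which Tead4 was detected on every array.

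Regulators of the other blastocyst lineages were counted for comparison. Of 16 tested, 7 fell in fertilized and 5 in SCNT embryos under Aph, and 0 rose in either (fitted medians -0.74 and -0.90). With undetected values at their limits the medians were -0.68 and -0.13, against 0.79 and 0.72 over all genes. The shares that fell over all genes were 25.1% and 14.7%. Nanog, a homeobox factor of the epiblast, read 9.53 to 9.73 in fertilized Aph- embryos and 4.39, 8.26 and 4.18 in fertilized Aph+ embryos, where only the second array detected it (at least 7.80-fold lower, fitted -4.05, SE 0.87, adjusted p = 0.00434). In SCNT embryos it fell at least 20.3-fold. Without Aph the primitive endoderm genes Sox17 (at least 5.14-fold lower) and Pdgfra (-2.36, SE 0.34, adjusted p = 0.0211 in limma) were lower in SCNT than in fertilized embryos. In that comparison 0.398% of all genes were called lower. None of the 9 trophectoderm factors was called in it, though Eomes, Gata2 and Tfap2a were lower at an unadjusted p below 0.05 in limma.

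Across the 13 arrays Pearson's r among the factors other than Tfap2c and Id2 ran from 0.804 (Tead4 with Tfap2a) to 0.965 (Eomes with Elf3). Pearson's r between Cdx2, Eomes and Elf3 was 0.959 to 0.965, and that of Tfap2a with Eomes was 0.964. Tfap2c correlated with the other 8 at -0.07 to 0.78 and Id2 at -0.07 to 0.62, and their r with each other was the lowest of all 36 pairs. These values describe 13 arrays that share 6 groups and 1 quantile normalization together with the gap between Aph- embryos and the rest. The genes whose profile was most like that of Cdx2 were AA467197 (r = 0.988), the ceramidase gene Acer1 (0.984), the ligand gene Wnt3a (0.982), the lipid transfer gene Stard10 (0.981) and the transporter gene Slc6a13 (0.975). Wnt3a was also the nearest gene to Elf3 (0.991), BC053393 the nearest to Eomes (0.995), Tspan8 to Gata2 (0.986) and Jade1 to Id2 (0.966). Wfdc2 was the nearest to Tead4 (0.986), Fbxl18 to Gata3 (0.974), Zswim1 to Tfap2c (0.979) and Scly to Tfap2a (0.986). Such neighbours were not rare, since 182 of the other 9786 genes had r of at least 0.9 with Cdx2 and 236 with Eomes. There were 95 for Id2, 82 for Tead4 and 18 for Tfap2c.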

How the data were processed

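The authors' deposited table held, for 13 Illumina BeadChip arrays, a mean bead intensity per probe, linear and without background subtraction or normalization, and a detection p-value beside each intensity. A second deposited table held log2 values that the authors had quantile normalized, with a median of 1.35 on every array. The submitters' processing notes name BeadStudio 3.2, lumi and RMA. The labels and the study's text name different amplification kits. No reference genome was used.

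Background correction, quantile normalization and the log2 step used neqc (limma 3.58.1, R 4.3.3, offset 16), with negative controls taken from the detection p-values. A probe was kept if any array detected it at p below 0.01. Each symbol of the platform annotation, which 1719 probes lacked, was represented by its brightest probe. This left 9787 of 16593 genes. Differences, standard errors and Benjamini-Hochberg adjusted p-values came from 1 limma model with 6 groups, 7 residual degrees of freedom and eBayes, with the p-values of single probes adjusted over all kept probes. An exact permutation test of 3 against 3 arrays could not go below 0.1 and was not used. The number of arrays limits the precision. The fit was tried on simulated arrays for fertilized Aph+ against Aph- embryos only. That does not check the tests with 1 array in a group or those with undetected values.

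All members were reported, and with each list up to 4 called genes with the largest change, together with the nearest genes by Pearson's r (5 for Cdx2, 1 for the others). Other genes given by their levels (Id1, Tead2, Gata6, Elf5, Yap1, Timp1, Star and Nanog) were chosen after their values were seen. The members and lists were chosen with earlier results of these data known. Alternatives tried were the authors' log2 values, no background correction, 75th percentile scaling, other detection filters, the mean of all probes, only the groups compared, a block for the labelled sample type, a trended robust eBayes, and each replicated array left out.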

Additional observations from a re-analysis of the deposited data

Results flagged for a closer look

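The Aph effect on Id2 differed between the embryo types. The SCNT difference (Aph+ minus Aph-) exceeded the fertilized one by a fitted 2.53 on the log2 scale (SE 0.64, adjusted p = 0.0171 in limma), with the single SCNT Aph+ array at 7.07 where the 3 fertilized Aph+ arrays read 4.32, 5.57 and 4.22. All 3 of these were undetected, and with them at their detection limits the difference was 1.36. The call was lost with scaling to the 75th percentile (1.12, adjusted p = 0.232). Of 24 cumulus cell markers, 14 were detected on the same SCNT Aph+ array against 3 to 6 on the fertilized Aph+ arrays, and their part in the Id2 level was not tested. With 1 SCNT Aph+ array the test takes its spread from the other groups. No group held the 4 or more arrays that a search for outlying arrays needs.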

How the results depend on the processing

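The analysis called 50 differences of single factors. None of them reversed. Under the 10 settings other than leaving out an array, 471 of 497 values kept the call and 26 lost it, and with each of 11 arrays left out, 534 of 550 kept it and 16 lost it. The counts of 9 and 8 factors lower under Aph, and of 8 higher than the oocyte or cumulus cells in Aph- embryos, held within 1.5 times in every setting. The counts that moved were small and, but for the last below, involved the single SCNT Aph+ or oocyte array. SCNT Aph+ against fertilized Aph+ had 1 factor higher, which became 0 with 75th percentile scaling and with only the groups compared (1 to 2 with an array left out). It had 1 lower, which became 0 with no background correction and with only the groups compared, and 2 with detection on at least 3 arrays, with the mean of all probes and with trend and robust (1 to 1 with an array left out). With 75th percentile scaling and without the second fertilized Aph+ array, that 1 was Tfap2c in place of Tead4. The difference of the Aph effects had 1 higher, 0 with 75th percentile scaling (1 to 2), and 0 lower, 1 with the mean of all probes (0 to 1). Fertilized Aph+ against the oocyte had 1 higher, 2 with the authors' log2 values and 0 with only the groups compared (1 to 2), and 1 lower, 0 with only the groups compared (1 to 2). SCNT Aph+ against the oocyte had 2 higher, 0 with no background correction and with 75th percentile scaling and 1 with no detection filter (1 to 3), and 1 lower (1 to 2 with an array left out). SCNT Aph+ against cumulus cells had 1 higher, 3 with the authors' log2 values and 0 with no background correction, 75th percentile scaling, the mean of all probes, only the groups compared or the sample type as a replicate block (0 to 3). SCNT Aph- against fertilized Aph-, the only such count without one of those arrays, had 0 lower (0 to 1). The causes were not tested. The comparison of SCNT Aph+ with the oocyte alone leaves no residual degrees of freedom, so that fit was not run.

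The embryo arrays share sample types in their labels, but arrays of the same type did not deviate together (correlations of -0.25 to 0.15), so the types were not taken as pairs. For the replicate block the SCNT Aph+ array counted as a blastocyst sample. With the sample type as a replicate block, the Tfap2c difference between SCNT Aph+ and cumulus cells became 3.04 (adjusted p = 0.0836) and lost its call, the only change of a call among the factors under the block. Scaling to the 75th percentile moved the median of all genes by up to -0.63 (fertilized Aph- against the oocyte) and to 0.32 for the Aph effect in fertilized embryos. Dim arrays limit what can be said of low levels: detection began at a log2 value of 5.67 to 6.15 on Aph+ arrays and of 4.75 to 5.26 on Aph- arrays.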
